A study of Arabidopsis thaliana with 45 samples.

Results

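Nitrogen enters an Arabidopsis seedling mainly as ammonium or as nitrate, and the 8 genes described here act on those routes. They are 5 genes for ammonium transporters and 3 for the enzymes that reduce nitrate to ammonium. The transporters were AMT1;1 (AT4G13510), AMT1;2 (AT1G64780), AMT1;3 (AT3G24300), AMT1;5 (AT3G24290) and AMT2 (AT2G38290, also called AMT2;1). The enzymes were the nitrate reductases NIA1 (AT1G77760) and NIA2 (AT1G37130) and the nitrite reductase NIR1 (AT2G15620). They were chosen by locus identifier from the 28545 genes of the deposited count tables. All 8 were in the tables.

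The study used RNA-seq to follow wild-type Col-0 seedlings kept in Kennedy Fixation Tubes (KFTs), sealed tubes that hold living plants on one side and a fixative on the other, through the timing of a suborbital flight on the ground. All seedlings were 7 days old, grew on MS medium under light for 24 h a day, and spent 8 h in the dark on day 3. In the time course, leaves (Q1L to Q4L) and roots (Q1R to Q4R) were fixed after a labelled 4 h in the KFT (Q1, which the study's text puts slightly shorter) or after a further 14 min (Q2), 18 min (Q3) or 28 min (Q4), and clinorotated leaves (CL) and roots (CR) were turned for 4 min on a clinostat after those 14 min, so that Q3 is their control of equal time. A separate set held Q1 roots from 4 equally treated KFTs (Q1A, Q1B, Q1C and Q1D) and roots from a Petri plate (Q1P). This gave 15 groups of 3 libraries. RNA of 2 plants went into each library. All 3 replicates of a condition were taken from a single vessel, so vessel and condition cannot be told apart and p-values measure the spread between libraries of a vessel. Leaves and roots of a time course condition were dissected from the same sets of plants, but whether equal replicate numbers mark the same plants is not given in the sources used here. A clinostat changes the direction of gravity and does not remove it.

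Between 29203427 and 117091661 reads were counted per library (median 50467925). Leaf and root labels fitted the tissue markers: all 8 leaf markers were higher in every leaf library than in any root library, and all 8 root markers were higher in every root library than in any leaf library. For replicate 1 of Q4L the source name says Q3, while the title, the library code and the treatment say Q4, and it was kept in Q4L.

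Nitrate taken up by the root is reduced to nitrite by nitrate reductase in the cytosol, an enzyme that carries a molybdenum cofactor, and nitrite is reduced to ammonium by nitrite reductase in plastids, with electrons from ferredoxin. Ammonium from this route, from photorespiration or from uptake is then fixed by glutamine synthetase and glutamate synthase. The AMT proteins carry ammonium across the plasma membrane. In Arabidopsis roots AMT1;1, AT3G24300 and AT3G24290 are known for uptake in outer cell layers, AT1G64780 for retrieval in the endodermis and cortex, and AMT2 for passage towards the shoot. Genes for nitrate reductase and nitrite reductase are textbook targets of nitrate induction, and MS medium supplies both nitrate and ammonium.

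The 4 AMT1 genes have a single exon each in the RefSeq annotation of TAIR10.1, and the other 4 members have introns. AMT1;1 lies at chr4:7858183-7860288 on the plus strand, a gene record longer than its only transcript. AT1G64780 lies at chr1:24060640-24062804 on the minus strand. AT3G24300 (chr3:8805519-8807460) and AT3G24290 (chr3:8801400-8802890) lie close together on the minus strand of chromosome 3. AMT2 lies at chr2:16039430-16042521 on the minus strand, with 5 exons. NIA1 (chr1:29235721-29239484, minus strand, 4 exons) and NIA2 (chr1:14158452-14161938, plus strand, 3 exons) are both on chromosome 1, and NIR1 lies at chr2:6810395-6812941 on the plus strand, with 4 exons.

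The related members share short stretches of identical sequence. The coding sequences of AT3G24300 and AT3G24290 had 87.5% identical bases, with 46 bases as the longest run shared without a difference. Those of NIA1 and NIA2 had 73.8%, with a longest shared run of 20 bases. Only uniquely mapped reads were counted, so a read pair wholly inside the longer run would be missing from both genes, while the run of NIA1 and NIA2 is shorter than any read the authors kept. The longest shared runs are printed here in capitals, with 30 bases of each gene's own sequence in lower case on either side, from RefSeq (TAIR10.1), to show how alike the members of each pair are at their closest. The printed stretches, lower-case flank included, start at coding base 1261 in AT3G24300, 1258 in AT3G24290, 577 in NIA1 and 559 in NIA2.
AMT1;3: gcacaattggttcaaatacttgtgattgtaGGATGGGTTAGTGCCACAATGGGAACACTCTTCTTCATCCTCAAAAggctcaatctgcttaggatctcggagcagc
AMT1;5: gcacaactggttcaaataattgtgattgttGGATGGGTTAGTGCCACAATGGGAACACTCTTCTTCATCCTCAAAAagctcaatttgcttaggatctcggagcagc
NIA1: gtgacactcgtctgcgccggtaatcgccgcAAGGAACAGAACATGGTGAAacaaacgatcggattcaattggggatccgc
NIA2: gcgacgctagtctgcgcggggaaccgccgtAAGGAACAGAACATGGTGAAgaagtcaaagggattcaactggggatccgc

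Levels are given as CPM, a gene's count in every 1000000 counted reads of its library, and levels of different genes are compared per kilobase of transcript. In the 15 leaf libraries NIA2 stood highest, with a median of 545 CPM per kb. NIA1 and NIR1 (111) followed and were not separated, since NIA1 was above NIR1 in 10 of 15 libraries. Then came AMT2 (16.0), AT1G64780 (5.70) and AT3G24300 (0.189), each above the next in all 15 libraries and with ranges that did not overlap. In roots NIR1 had the highest median in both library sets and the place of NIA2 depended on the set. In the 15 root libraries of the time course and clinostat the medians were 86.8 CPM per kb for NIR1, 75.9 for NIA2, 40.6 for AT1G64780, 23.5 for AT3G24300, 17.1 for AMT2 and 8.94 for NIA1. NIA2 was above AT1G64780 in all 15 of them. In the 15 root libraries of KFTs and plate the medians were 62.6 CPM per kb for NIR1, 54.0 for AT1G64780, 38.8 for NIA2, 24.9 for AT3G24300, 14.7 for AMT2 and 5.14 for NIA1, and AT1G64780 was above NIA2 in 13 of them. Neighbours in these orders had ranges that overlapped, except AT3G24300 over AMT2 and AMT2 over NIA1 in the set of KFTs and plate.

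**Figure D1:**
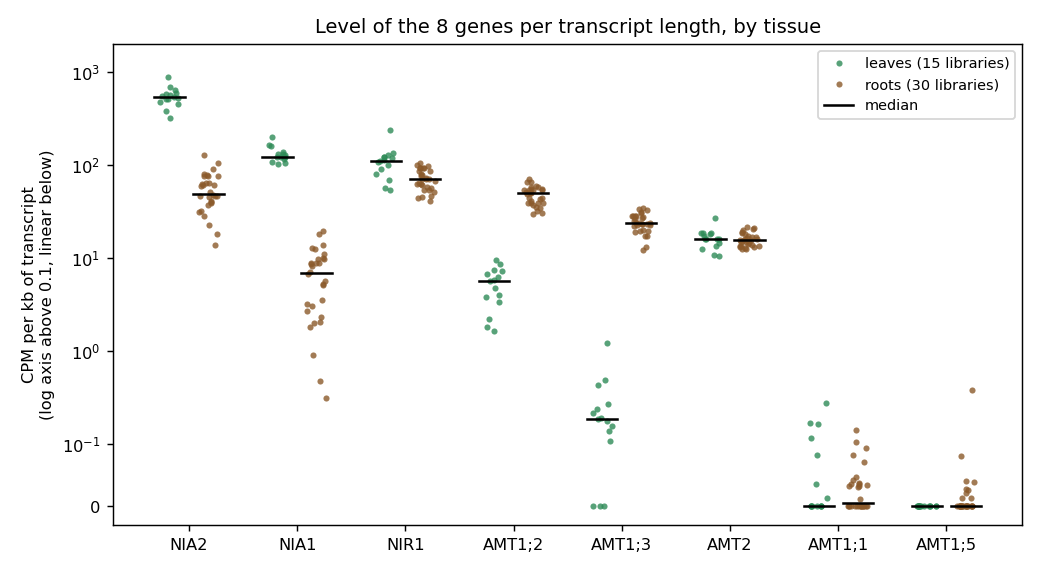
Level of the 8 genes in CPM per kb of transcript (log axis above 0.1, linear below), 1 point per library, leaves (15 libraries) left of roots (30 libraries), with the median as a line. NIA2 and NIA1 stand far higher in leaves and the AMT1 genes AT1G64780 and AT3G24300 in roots, while AMT1;1 and AMT1;5 lie near 0 in both.

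Near-zero counts of AMT1;1 (AT4G13510) could not be read as its expression. It is known as a main high-affinity ammonium transporter of Arabidopsis roots, yet it had 149 counts over all 45 libraries, with 23 libraries at 0 and a highest value of 0.480 CPM. Of its 1736 exon bases 1709 (98.4%) are also covered by AT4G13505, a long non-coding RNA on the opposite strand of TAIR10.1 (chr4:7858000-7859891), which leaves 27 bases to itself. AT4G13505 had 8 counts in all. This overlap is that of RefSeq, and the annotation release behind the deposited counts, which was not used here, may differ from it. The library kit kept strand, but whether the counting used it is not given in the sources used here, and without it reads of the gene and of its antisense partner cannot be told apart. Low medians were common among genes covered to this degree. Of the 159 protein-coding genes with at least 80% of their exon bases covered from the other strand, 149 (93.7%) had a median under 1 CPM. With 50% to under 80% covered, 213 of 325 (65.5%) did, and with above 0% and under 50%, 897 of 5551 (16.2%). Among the 19488 genes with no such cover 5612 (28.8%) did. Whether the overlap lowered the counts was not tested.

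**Figure D2:**
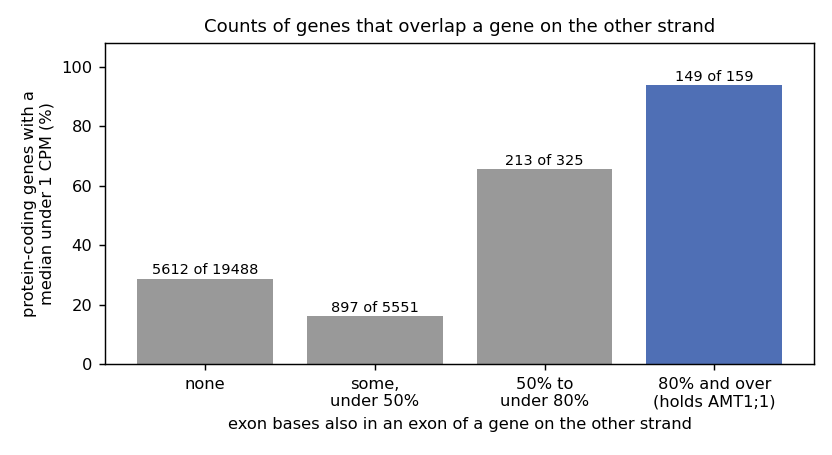
Percent of protein-coding genes with a median under 1 CPM over the 45 libraries, by the percent of exon bases that lie in an exon of a gene on the other strand, with the numbers of genes over the bars. The bar with AMT1;1, at 80% and over, reaches 93.7%, against 28.8% for genes with no cover.

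AMT1;5 (AT3G24290), a high-affinity transporter of the root surface, has no annotated gene on its other strand and was close to absent. It had 52 counts over the 30 root libraries, 31 of them in replicate 3 of Q3R and 8 in replicate 1 of Q2R, and 21 root libraries were at 0. In the 15 leaf libraries it had 0 of 694749835 counts, which allows a level of up to 0.00432 CPM over those libraries together (3 counts, counting error only). Single leaf libraries allow between 0.0549 and 0.103 CPM. Neither AMT1;1 nor AMT1;5 passed the filter on low counts in the comparisons of conditions, so 6 of the 8 members were tested there.

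Leaves and roots held these genes at different levels (leaves against roots over Q1 to Q4, 12 libraries each). Both nitrate reductase genes were far higher in leaves and the AMT1 genes AT1G64780 and AT3G24300 far higher in roots, while NIR1 was moderately higher in leaves. 7 members passed the filter on low counts and all 7 were called (edgeR, adjusted p of at most 0.05), 5 of them higher in leaves and 2 lower. Most genes were called in this comparison: 71.5% of 23436, with 35.0% higher in leaves and 36.6% lower. 4 members did not overlap between leaf and root libraries, as did 36.1% of all genes. In these bulk samples fewer cells of a type and less RNA per cell cannot be told apart.

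NIA2, known for most of the nitrate reductase activity of Arabidopsis leaves, ranged from 1027 to 2866 CPM in the 12 leaf libraries (mean 1737 ± 472, SD) and from 147.5 to 406.8 CPM in the 12 root libraries (mean 240 ± 75.6). It was 9.23-fold higher in leaves (log2 fold change 3.21, SE 0.15, adjusted p = 2.39e-14). NIA1, the minor reductase gene, averaged 428 ± 87.5 CPM in leaves and 28.1 ± 19.9 CPM in roots (SD, n = 12 each). Its leaf values lay between 324.4 and 631.1 CPM and its root values between 0.989 and 61.1 CPM, so that the groups were far apart. This was 21.8-fold higher in leaves (log2 4.44, SE 0.40, adjusted p = 2.76e-09).

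NIR1, the only nitrite reductase gene of Arabidopsis, averaged 232 ± 107 CPM in leaves and 172 ± 41.4 CPM in roots (SD, n = 12 each). The libraries overlapped, and the fold was 1.63 (log2 0.70, SE 0.11, adjusted p = 1.2e-05). Within single times it was not called at Q2 (log2 0.38, adjusted p = 0.158) or at Q4 (log2 0.57, adjusted p = 0.0624). Both reductase genes had larger fold changes between tissues than NIR1. Per kb, NIA2 exceeded NIA1 by 2.51 to 5.47 times in the leaf libraries (median 4.36) and by 4.07 to 147 times in the root libraries (median 8.29).

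AT3G24300 (AMT1;3), an uptake transporter of outer root cells, was nearly confined to roots in these libraries. It averaged 0.555 ± 0.634 CPM in leaves and 45.4 ± 12.7 CPM in roots (SD, n = 12 each), and 3 of all 15 leaf libraries were at 0. The log2 fold change was -6.14 (SE 0.42, adjusted p = 2.54e-11). AT1G64780 (AMT1;2), the endodermal transporter, averaged 11.6 ± 5.79 CPM in leaves and 95.9 ± 17.0 CPM in roots, again with no overlap (log2 -2.75, SE 0.24, adjusted p = 1.47e-09). Leaf values of AT1G64780 lay between 3.53 and 20.8 CPM and root values between 65.6 and 121 CPM.

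AMT2, which serves ammonium movement in roots and shoots, was at about the same CPM in both tissues, 30.6 ± 8.40 in leaves and 31.7 ± 5.93 in roots. With TMM scaling it passed the threshold narrowly as higher in leaves (log2 0.27, SE 0.12, adjusted p = 0.044). With library totals alone the sign turned (log2 -0.06, adjusted p = 0.658), and the median of all genes then lay at -0.36 on the log2 scale, against -0.03 with TMM. The split of all calls with library totals alone was 6417 higher and 11238 lower, against 8193 higher and 8566 lower with TMM. AMT2 was also not called with DESeq2 (adjusted p = 0.0609), at any single time or with leaf and root libraries of a time and number as pairs, a fit chosen after seeing the data (log2 0.26, adjusted p = 0.102). AMT1;1 was called as well (adjusted p = 0.0139), from 59 counts in the 12 leaf libraries and 12 in the 12 root libraries, all 12 in replicate 3 of Q1R. That call was lost with DESeq2 (adjusted p = 0.191), with the same pairs (adjusted p = 0.182) and without Q3L replicate 1 or Q4L replicate 2, and it carries the limit of the opposite strand given above. The other 5 members stayed called with the pairs.

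Among the transporter genes whose counts could be read, the mix therefore differed between tissues. AMT1;1 entered the sums with near-zero counts that could not be read as its expression, so its share is unknown. Of the summed CPM per kb of the 5 AMT genes, AMT2 took a median of 75.0% in leaves (range 59.4 to 89.8%) and 18.5% in roots (13.2 to 29.5%). AT1G64780 took 25.0% in leaves and 54.9% in roots (range 40.5 to 62.5%), with medians of 51.9% in the time course and clinostat and 56.4% in the set of KFTs and plate. AT3G24300 took 0.846% in leaves and 28.1% in roots (19.3 to 32.7%).

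Leaf markers were set beside the reductase genes in roots. Over Q1 to Q4 the summed 8 leaf markers were in roots at 0.728% of their median leaf level (range 0.363 to 1.27%). NIA2 was at 13.2% of its leaf level (8.62 to 23.8%) and NIR1 at 79.3% (42.8 to 101.0%), so that every root library was above the marker range for both. NIA1 was at 6.8%, but its range of 0.243 to 15.0% reached below that of the markers. Among all 30 root libraries the ranks by leaf marker sum and by NIA1 were close in some and far apart in others. CR replicate 1 ranked 6th for both, and Q2R replicate 2 ranked 5th by markers and 3rd for NIA1. Q1A replicate 1 ranked the highest by markers with 825 CPM and 23rd for NIA1, and Q3R replicate 3 ranked 25th and the highest. These libraries are examples only. The part of leaf RNA in the root values was not tested. In the other direction, the summed 8 root markers were in leaves at 9.61% of their median root level, nearly all of it from PYK10, a beta-glucosidase known from roots and hypocotyls, at 10.6%. The other 7 root markers together were at 0.517% (range 0.18 to 3.08%), against 13.2% for AT1G64780 and 0.799% for AT3G24300, whose leaf level is thus near that of these markers.

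Genes of the surrounding pathways were called in 10 of 15, 10 of 12 and 21 of 25 cases in 3 lists, beside 71.5% of all genes. Of 15 genes of ammonium assimilation 5 were higher and 5 lower in leaves (median log2 fold change 0.19, against -0.03 for all genes). GLN2, the plastid glutamine synthetase, averaged 2299 ± 355 CPM in leaves and 142 ± 17.0 CPM in roots (log2 4.35, SE 0.09, adjusted p = 1.6e-19). GLU1, the ferredoxin-dependent glutamate synthase of photorespiration, averaged 1047 ± 281 CPM in leaves and 3.23 ± 1.37 CPM in roots (log2 8.66, SE 0.27, adjusted p = 3.46e-17). These serve the leaf plastid. The cytosolic glutamine synthetase GLN1;3 (63.4 ± 9.45 CPM in leaves, 277 ± 33.7 CPM in roots, log2 -1.80, adjusted p = 3.24e-15) and GLU2 (log2 -2.12, adjusted p = 1.64e-14), a ferredoxin-dependent synthase as well, were lower in leaves.

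Of 12 genes for cofactors and electron supply 5 were higher and 5 lower in leaves (median log2 -0.25). RFNR2, a reductase that charges ferredoxin in root plastids, was lower in leaves (16.7 ± 12.7 CPM, against 192 ± 33.2 CPM in roots, log2 -3.31, SE 0.17, adjusted p = 3.02e-13). So were its partner, the root ferredoxin FD3 (log2 -1.74, adjusted p = 1.54e-12), and G6PD2, a plastid glucose-6-phosphate dehydrogenase (log2 -0.77, adjusted p = 8.99e-10). UPM1, which makes a precursor of the siroheme in nitrite reductase, was higher in leaves (log2 0.87, adjusted p = 2.74e-09). Of 25 genes of nitrate signalling 7 were higher and 14 lower in leaves (median log2 -0.25). The transcription factor gene TGA1 averaged 17.4 ± 5.65 CPM in leaves and 353 ± 41.1 CPM in roots (log2 -4.00, SE 0.15, adjusted p = 1.5e-15). BT2, which restrains nitrate uptake genes, averaged 556 ± 107 CPM in leaves and 101 ± 23.9 CPM in roots (log2 2.80, SE 0.12, adjusted p = 6.71e-15). NLP6 (log2 -1.65, adjusted p = 9.64e-11), of the NIN-like factors, and the kinase gene CIPK23 (log2 -1.17, adjusted p = 9.68e-11) were lower in leaves.

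NIA1 was also the member that varied most between libraries of the same root group. Its pooled SD within root groups was 1.15 on the log2(CPM + 1) scale, larger than that of 99.7% of 19192 genes (median gene 0.218). NIA2 had 0.482 in roots (96.6% of genes smaller), while NIR1 (0.192, 38.1%) and AMT2 (0.171, 27.6%) were steadier than most genes. AT1G64780 (0.253, 62.6%) and AT3G24300 (0.304, 77.1%) lay above the median gene. In leaves the widest member was AT1G64780, with 0.754 (94.6% of 18197 genes smaller, median gene 0.345), where its level is low. In leaves NIA1 (32.6%), AMT2 (39.9%) and NIA2 (41.2%) were steadier than most genes.

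Across the root time course edgeR called no member at any time, while DESeq2 called 1 at Q3 and 2 at Q4, and the reductase genes gave the widest values. NIA1 had 25.8, 10.0 and 27.7 CPM in Q1R, 7.43, 43.9 and 40.9 CPM in Q2R, 27.7, 57.2 and 61.1 CPM in Q3R and 0.989, 5.69 and 28.2 CPM in Q4R. Every Q3R library was above every Q1R library, though the closest were 27.73 CPM in Q3R and 27.67 CPM in Q1R, and the Q4R libraries reached the lowest value. NIA2 had 252.5, 190.9 and 207.5 CPM in Q1R, 197.1, 406.8 and 288.1 CPM in Q2R, 246.5, 243.4 and 340.2 CPM in Q3R and 147.5, 153.2 and 207.6 CPM in Q4R. NIR1 had 173.4, 158.4 and 190.4 CPM in Q1R, 148.4, 206.3 and 231.2 CPM in Q2R, 219.4, 201.9 and 188.4 CPM in Q3R and 119.1, 97.6 and 135.5 CPM in Q4R. All 3 Q4R libraries of NIR1 lay below every Q1R library.

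**Figure D3:**
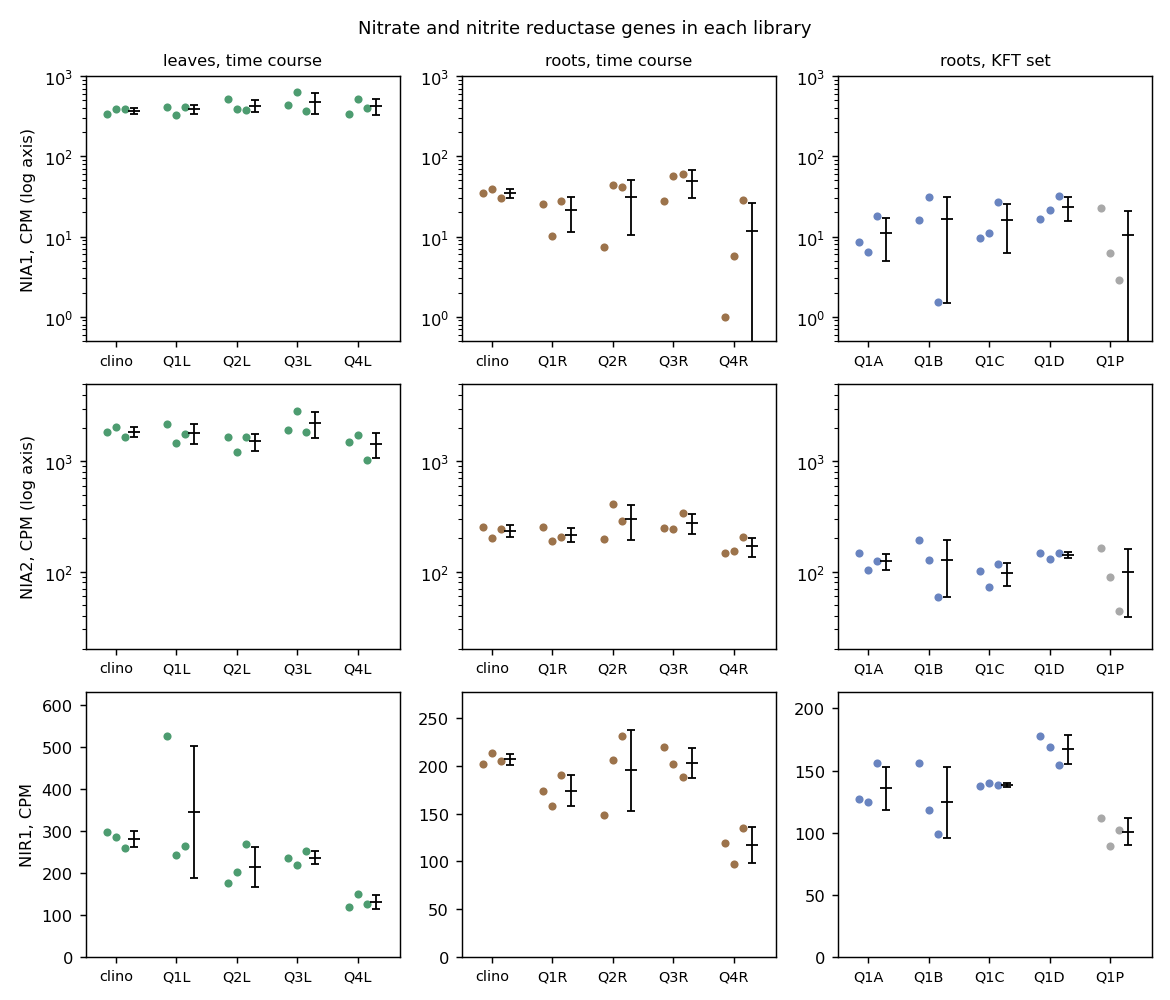
CPM of NIA1 and NIA2 (log axes) and NIR1 (linear axis) in each library of leaves, roots of the time course and roots of the KFT set, with mean ± SD of 3 libraries as a bar beside the points (NIA1 bars of Q4R and Q1P run below the axis). NIR1 sits at 97.6 to 135.5 CPM in Q4R and at 158.4 to 190.4 CPM in Q1R, and NIA1 scatters most within root groups.

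AT1G64780 (AMT1;2) had 95.3, 109 and 116 CPM in Q1R, 75.8, 112 and 84.2 CPM in Q2R, 106, 121 and 85.7 CPM in Q3R and 93.3, 87.9 and 65.6 CPM in Q4R. AT3G24300 (AMT1;3) had 38.0, 64.8 and 59.4 CPM in Q1R, 42.6, 55.3 and 51.9 CPM in Q2R, 46.4, 45.6 and 54.1 CPM in Q3R and 37.6, 25.4 and 23.8 CPM in Q4R. Both genes had all Q4R libraries below all Q1R libraries, though by narrow gaps. The closest were 93.31 CPM in Q4R and 95.27 CPM in Q1R for AT1G64780, and 37.63 CPM and 37.96 CPM for AT3G24300. AMT2 kept between 24.0 and 41.0 CPM in Q1R, 24.6 and 30.5 CPM in Q2R, 34.6 and 40.2 CPM in Q3R and 25.5 and 31.8 CPM in Q4R, with overlap of every later time with Q1R.

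**Figure D4:**
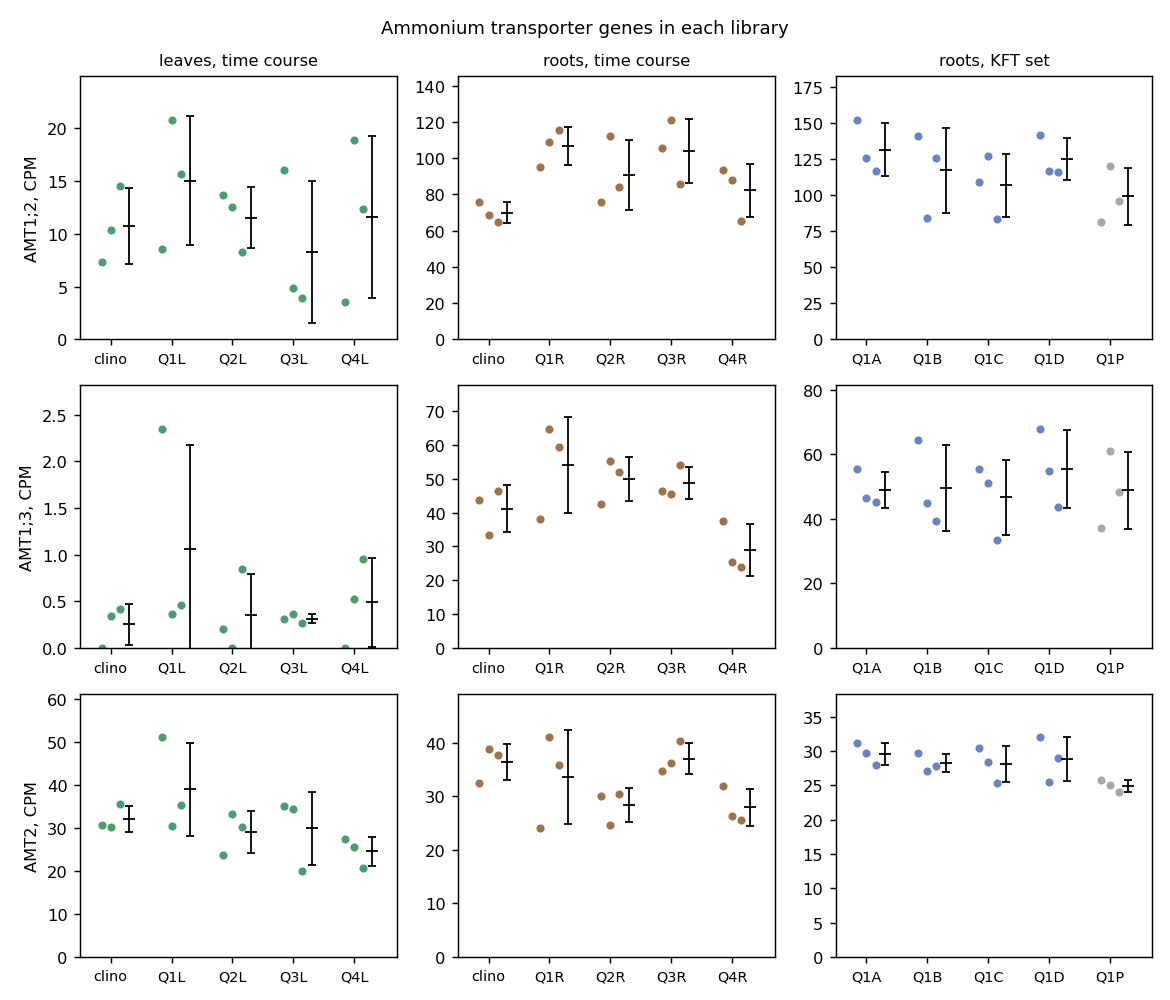
CPM (linear axes from 0) of AMT1;2, AMT1;3 and AMT2 in each library of leaves, roots of the time course and roots of the KFT set, with mean ± SD of 3 libraries as a bar beside the points. AMT1;3 lies at 23.8 to 37.6 CPM in Q4R and at 38.0 to 64.8 CPM in Q1R, and AMT1;2 at 64.6 to 76.0 CPM in clinorotated roots and at 85.7 to 121 CPM in Q3R.

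At Q2 against Q1, the 6 members tested in roots had log2 fold changes between -0.21 (AMT2) and 0.58 (NIA1). None was called with edgeR, which called 0.363% of all genes. At an unadjusted p under 0.05 there was 1 member, beside 11.2% of all genes, and DESeq2 called none. The smallest adjusted p was that of NIA2 (log2 0.50, SE 0.21, adjusted p = 0.403). None had groups apart, as 18.2% of all genes had. The 15 genes of ammonium assimilation, the 12 of cofactors and the 24 tested of nitrate signalling also had no call with edgeR, with 5, 0 and 3 genes at an unadjusted p under 0.05 and 1, 0 and 1 called by DESeq2.

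At Q3 against Q1, all 3 enzyme genes were above 0 in roots and 1 of the 6 tested, NIA1, had groups apart. Groups were apart for 27.7% of all genes. NIA1 averaged 48.7 ± 18.2 CPM in Q3R and 21.2 ± 9.69 CPM in Q1R (SD, n = 3 each), which is 1.26 on the log2 scale (SE 0.35, adjusted p = 0.0615). NIA2 had 0.41 (SE 0.14, adjusted p = 0.124) and NIR1 0.28 (SE 0.10, adjusted p = 0.143). None was called with edgeR, which called 4.54% of all genes, and 3 had an unadjusted p under 0.05, as 21.3% of all genes had. DESeq2 called NIA2 (adjusted p = 0.0361), where it called 12.3% of all genes. NIA1 was called without a filter on low counts (adjusted p = 0.00762) and without Q3R replicate 1 (log2 1.55, adjusted p = 0.0209).

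The 3 transporter genes stayed between -0.09 (AT3G24300) and 0.20 (AMT2) on the log2 scale at Q3. Of the further genes, FD3 rose (238 ± 26.5 CPM in Q3R, 180 ± 18.3 CPM in Q1R, log2 0.46, adjusted p = 0.0429), 1 of 12 for cofactors and electron supply. NLP7, the transcription factor that senses nitrate, fell (57.6 ± 8.67 CPM in Q3R, 87.5 ± 11.2 CPM in Q1R, log2 -0.54, adjusted p = 0.0437), 1 of 24 tested for nitrate signalling. None of the 15 for ammonium assimilation was called with edgeR (5 at an unadjusted p under 0.05, beside 21.3% of all genes, and 4 called by DESeq2). The call of FD3 held in 4 of 12 alternatives and that of NLP7 in 6 of 12.

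At Q4 against Q1, all 6 members tested were below 0 in roots, with a median log2 fold change of -0.41, against -0.01 for all genes. None was called with edgeR, which called 0.913% of all genes, and 2 had an unadjusted p under 0.05, as 10.6% of all genes had. AT3G24300 averaged 28.9 ± 7.57 CPM in Q4R and 54.1 ± 14.2 CPM in Q1R (SD, n = 3 each, log2 -0.84, SE 0.22, adjusted p = 0.106). NIR1 averaged 117 ± 19.0 CPM in Q4R and 174 ± 16.0 CPM in Q1R (log2 -0.50, SE 0.14, adjusted p = 0.152). DESeq2 called both, AT3G24300 with adjusted p = 0.0189 and NIR1 with 0.0286, where it called 2.53% of all genes. AT3G24300 was also called without a filter on low counts (adjusted p = 0.0198). Groups were apart for 3 of the 6, both of these and AT1G64780 (log2 -0.31, SE 0.15, adjusted p = 0.488), and for 17.2% of all genes. The gaps of AT3G24300 and AT1G64780 were the narrow ones given above.

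The other members at Q4 were NIA2 (log2 -0.29, adjusted p = 0.545), NIA1 (log2 -0.80, SE 0.74, adjusted p = 0.791) and AMT2 (log2 -0.21, adjusted p = 0.803). In the same roots edgeR called 2 of 15 genes of ammonium assimilation lower and none higher. GLN1;2, a cytosolic glutamine synthetase, averaged 676 ± 152 CPM in Q4R and 1611 ± 430 CPM in Q1R (log2 -1.19, SE 0.20, adjusted p = 0.0102). GLT1, the NADH-dependent glutamate synthase, averaged 729 ± 37.0 CPM in Q4R and 1080 ± 29.4 CPM in Q1R (log2 -0.51, SE 0.10, adjusted p = 0.0404). They are 2 of several enzymes that fix ammonium, and GLN1;1, GLN1;3 and GLU2, also present in roots, were not called with edgeR. Of the 15 genes, 6 had an unadjusted p under 0.05, beside 10.6% of all genes, and DESeq2 called 3. The median log2 fold change of the 15 genes was 0.01, against -0.01 for all genes. The call of GLN1;2 held in 11 of 12 alternatives and that of GLT1 in 6 of 12. None of the 12 genes of cofactors or the 24 tested of nitrate signalling was called with edgeR, with 3 of each at an unadjusted p under 0.05 and 1 and 0 called by DESeq2.

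In leaves at the same times edgeR called no member either, while DESeq2 called 1 at Q4. NIA1 had 416.9, 324.4 and 413.1 CPM in Q1L, 511.5, 385.6 and 381.3 CPM in Q2L, 432.5, 631.1 and 369 CPM in Q3L and 340.9, 523.7 and 401.9 CPM in Q4L. NIA2 had 2192, 1451 and 1763 CPM in Q1L, 1672, 1209 and 1662 CPM in Q2L, 1924, 2866 and 1825 CPM in Q3L and 1508, 1747 and 1027 CPM in Q4L. Both reductase genes overlapped with Q1L at every later time. NIR1 had 525.9, 243.6 and 265.1 CPM in Q1L, 175.7, 201.3 and 267.8 CPM in Q2L, 236, 220 and 251.1 CPM in Q3L and 117.7, 150.7 and 125.1 CPM in Q4L. Replicate 1 of Q1L stood well above the others of its group, and all Q4L libraries were below all Q1L libraries.

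Among the leaf transporters, AMT2 had 51.1, 30.4 and 35.4 CPM in Q1L, 23.8, 33.2 and 30.3 CPM in Q2L, 35.1, 34.5 and 20.1 CPM in Q3L and 27.4, 25.5 and 20.7 CPM in Q4L. Its Q4L libraries lay below its Q1L libraries. AT1G64780 ranged from 8.60 to 20.8 CPM in Q1L, from 8.27 to 13.7 CPM in Q2L, from 3.97 to 16.1 CPM in Q3L and from 3.53 to 18.9 CPM in Q4L, with overlap throughout. AT3G24300 reached at most 2.35 CPM in any leaf library, in Q1L replicate 1.

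At Q2 against Q1 in leaves, the 6 members tested had no call with edgeR (0.0% of all genes called, 1249 with an unadjusted p under 0.05, 163 called by DESeq2). NIR1 had the smallest adjusted p (log2 -0.65, SE 0.27, adjusted p = 0.789), and it alone had an unadjusted p under 0.05. DESeq2 called none of the 6, and none had groups apart, as 12.8% of all genes had. At Q3 all 6 had an adjusted p of 0.999, with log2 fold changes of 0.41 for NIA1, 0.39 for NIA2, -0.44 for NIR1 and -0.81 for AT1G64780. Neither tool called a member, none had an unadjusted p under 0.05, and edgeR called 0.00979% of all genes. Only AT3G24300, at under 1 CPM in Q3L, had groups apart at Q3, as 9.8% of all genes had. Its closest libraries were 0.366 CPM in Q3L and 0.369 CPM in Q1L, a gap too small to read at this level.

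At Q4 against Q1 in leaves NIR1 moved the furthest of the enzyme genes. It averaged 131 ± 17.3 CPM in Q4L and 345 ± 157 CPM in Q1L (SD, n = 3 each), which is -1.30 on the log2 scale (SE 0.30, adjusted p = 0.955). With edgeR none of the 6 was called and 0.0% of all genes were, with 738 at an unadjusted p under 0.05, NIR1 among them. DESeq2 called NIR1 (adjusted p = 0.0387), where it called 0.213% of all genes, and so did edgeR with all libraries of the time course in a joint fit (log2 -1.30, adjusted p = 0.0104). Without Q1L replicate 1 the log2 fold change was -0.89 and not called. AMT2 averaged 24.5 ± 3.43 CPM in Q4L and 39.0 ± 10.8 CPM in Q1L (log2 -0.56, SE 0.26, adjusted p = 0.955). NIR1 and AMT2 had groups apart, 2 of the 6, as did 14.1% of all genes. With edgeR the lists of ammonium assimilation, cofactors and nitrate signalling had no call in leaves at any time. At Q4 4, 3 and 1 of their genes had an unadjusted p under 0.05 (3.58% of all genes) and DESeq2 called 2, 1 and 0. At Q2 these counts were 3, 2 and 3 (6.1% of all genes) with 0, 0 and 1 called by DESeq2. At Q3 they were 1, 2 and 0 (3.37% of all genes) with none called.

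Whether leaves and roots moved by different amounts was tested on the difference of their changes, and no member was called. At Q2 NIR1 (-0.89, adjusted p = 0.438) and NIA2 (-0.75, adjusted p = 0.47) had the smallest adjusted p for the log2 change in leaves less that in roots, where 0.0977% of all genes were called. At Q3 NIR1 had -0.71 (adjusted p = 0.464, 0.0089% of all genes called). At Q4 NIR1 had -0.78 (adjusted p = 0.8, 0.00889% of all genes called). The NIR1 changes of the 2 tissues at Q4, -1.30 in leaves and -0.50 in roots, were therefore not shown to differ. At an unadjusted p under 0.05 there were 2 members at Q2, 1 at Q3 and 1 at Q4, beside 10.6%, 10.6% and 6.23% of all genes. DESeq2 called no member.

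Clinorotation was compared with Q3, the unrotated group of equal time. In roots the endodermal transporter gene AT1G64780 gave the widest separation. It had 76.0, 68.8 and 64.6 CPM in CR, against 106, 121 and 85.7 CPM in Q3R, with no overlap (means 69.8 ± 5.78 CPM in CR and 104 ± 17.8 CPM in Q3R). The log2 fold change was -0.60 (SE 0.15, adjusted p = 0.216). It was the only 1 of 6 members with groups apart, as 19.4% of all genes had. None of the 6 was called with edgeR, which called 0.00475% of all genes (1 gene). AT1G64780 was the only member with an unadjusted p under 0.05, beside 13.9% of all genes.

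For AT1G64780 in clinorotated roots the call depended on the fit, and 3 of 15 alternatives gave a call. It was not called with Q1R and Q3R, or with Q1R, Q2R and Q3R, pooled as the control. DESeq2 called it (adjusted p = 0.0135), where it called 2.15% of all genes. With Q1R in place of Q3R as control the log2 fold change was -0.57 (adjusted p = 0.0479), and without CR replicate 1 it was -0.66 (adjusted p = 0.0497). Its share of the summed AMT level per kb had a median of 45.8% in CR (range 40.5 to 47.0%), against 53.7% in Q3R (44.5 to 56.8%), which overlapped. AMT1;1, whose counts could not be read, is in effect left out of these shares. AT3G24300, the other AMT1 gene counted in roots, had 43.7, 33.3 and 46.5 CPM in CR, against 46.4, 45.6 and 54.1 CPM in Q3R (log2 -0.26, adjusted p = 0.447). NIR1 had 202.3, 213.7 and 204.7 CPM in CR, against 219.4, 201.9 and 188.4 CPM in Q3R, a difference within the spread (log2 0.01, adjusted p = 0.978). NIA1 (log2 -0.49, adjusted p = 0.416), NIA2 (log2 -0.26, adjusted p = 0.473) and AMT2 (log2 -0.04) also overlapped.

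In clinorotated leaves none of the 6 members tested was called by edgeR or DESeq2 and none had an unadjusted p under 0.05. edgeR called 0.0% of all genes (1460 with an unadjusted p under 0.05, 131 called by DESeq2). NIR1 had 296.3, 284.5 and 259 CPM in CL, against 236, 220 and 251.1 CPM in Q3L, all 3 higher (log2 0.20, SE 0.13, adjusted p = 0.834). It was the only member with groups apart, as 13.2% of all genes had. Against Q1L its log2 fold change had the other sign, -0.25. NIA1 had 334.5, 388.2 and 384.5 CPM in CL, against 432.5, 631.1 and 369 CPM in Q3L (log2 -0.43, SE 0.20, adjusted p = 0.697).

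AT1G64780 in leaves had 7.38, 10.4 and 14.5 CPM in CL, against 16.1, 4.85 and 3.97 CPM in Q3L, which overlapped. The difference between its leaf and root change under clinorotation was 0.93 (SE 0.57, adjusted p = 0.55) and was not called, where 0.0311% of all genes were. Without Q3L replicate 1 it was 1.79 and called (adjusted p = 0.0476). No other member had a call in this test, and none had an unadjusted p under 0.05 or a call by DESeq2. The lists of ammonium assimilation, cofactors and nitrate signalling had no call by edgeR or DESeq2 under clinorotation in either tissue. Their genes at an unadjusted p under 0.05 were 4, 2 and 1 in roots (13.9% of all genes) and 3, 1 and 4 in leaves (7.15%).

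**Figure D5:**
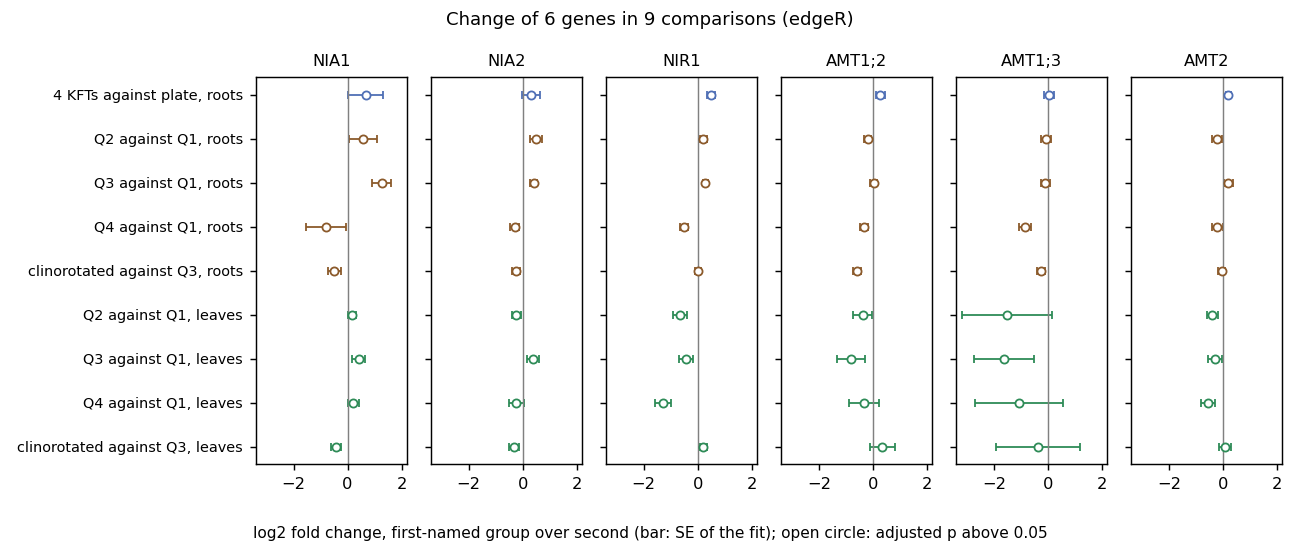
Log2 fold change of 6 members in 9 comparisons of conditions, first-named group over the second, with the SE of the edgeR fit as a bar. All circles are open, since no adjusted p was at or below 0.05, and the lowest values are those of NIR1 in Q4 leaves (-1.30) and AMT1;3 in Q4 roots (-0.84) among members above 10 CPM.

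Roots of sealed KFTs were set against roots of the Petri plate (12 libraries of Q1A to Q1D, 3 of Q1P). All 6 members tested were above 0, with a median log2 fold change of 0.29, against 0.0 for all genes, and none was called with edgeR, which called 0.979% of all genes. NIR1 came nearest. Its libraries had 126.8, 124.8 and 155.8 CPM in Q1A, 155.7, 118.3 and 99.1 CPM in Q1B, 137.2, 140 and 138.4 CPM in Q1C and 177.7, 169 and 154.4 CPM in Q1D, against 111.4, 89.3 and 102 CPM in Q1P. 11 of the 12 KFT libraries were above the highest plate library, and the means were 141 ± 22.4 CPM in the KFTs and 101 ± 11.1 CPM on the plate.

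The log2 fold change of NIR1 was 0.49 (SE 0.14, adjusted p = 0.164), and DESeq2 called it (adjusted p = 0.0426), where it called 2.15% of all genes. DESeq2 was the only 1 of 27 alternatives that called NIR1. Each KFT alone was above the plate, with log2 fold changes of 0.42 for Q1A, 0.29 for Q1B, 0.45 for Q1C and 0.74 for Q1D. None of these was called with edgeR (adjusted p between 0.101 and 0.687), and all share the same plate libraries, so they are not independent. With counts summed per vessel NIR1 had 0.50 (adjusted p = 0.519), and 61 genes were called in place of 215. AMT2 was narrowly spread, with 25.3 to 32.0 CPM in the KFTs, against 24.0 to 25.8 CPM on the plate (log2 0.20, SE 0.08, adjusted p = 0.379). These were the 2 members with an unadjusted p under 0.05, beside 9.31% of all genes. No member had groups apart, as 1.63% of all genes had.

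The other members scattered within KFTs and plate alike. NIA1 had 8.59, 6.48 and 17.9 CPM in Q1A, 16.2, 31.2 and 1.53 CPM in Q1B, 9.60, 11.1 and 27.0 CPM in Q1C and 16.8, 21.2 and 31.8 CPM in Q1D, against 22.4, 6.29 and 2.89 CPM in Q1P (log2 0.67, SE 0.66, adjusted p = 0.864). NIA2 ranged from 58.5 to 194.1 CPM in the KFTs and from 44.0 to 162.9 CPM on the plate (log2 0.31, SE 0.32, adjusted p = 0.868). AT1G64780 ranged from 83.8 to 152.2 CPM in the KFTs and from 81.2 to 120.4 CPM on the plate (log2 0.28, SE 0.16, adjusted p = 0.687), and AT3G24300 from 33.5 to 67.9 CPM in the KFTs and from 37.1 to 61.1 CPM on the plate (log2 0.04, adjusted p = 0.978). Only 1 plate was used, so the plate and the absence of a KFT cannot be told apart. KFT seedlings were also cut out with their medium and inserted, while plate samples came straight from the plate, so handling goes with the vessel.

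Of the further genes GDH3, a subunit of glutamate dehydrogenase, fell (0.689 ± 0.237 CPM in KFTs, 2.46 ± 0.789 CPM on the plate, log2 -1.83, SE 0.29, adjusted p = 0.00368), 1 of 15 for ammonium assimilation. G6PD2 rose (79.0 ± 4.37 CPM in KFTs, 65.1 ± 3.52 CPM on the plate, log2 0.28, adjusted p = 0.0453), 1 of 12 for cofactors. LBD39, a repressor of nitrogen-responsive genes, rose (75.5 ± 5.30 CPM in KFTs, 58.0 ± 7.31 CPM on the plate, log2 0.38, adjusted p = 0.0384), 1 of 25 for nitrate signalling. The call of GDH3 held in 21 of 27 alternatives, that of LBD39 in 10 and that of G6PD2 in 2.

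Among the 4 equally treated KFTs no member was called. The 6 tested had adjusted p between 0.888 and 0.986, none had an unadjusted p under 0.05, and DESeq2 called none. With edgeR 0.0% of all genes were called (1184 with an unadjusted p under 0.05), and DESeq2 called 94 genes.

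Roots with the same labelled treatment were also present in both library sets, which shows how far members differ between sets. NIA2 averaged 217 ± 31.9 CPM in Q1R and 122.7 ± 36.3 CPM in the 12 libraries of Q1A to Q1D, and the ranges overlapped narrowly, with 190.9 to 252.5 CPM in Q1R and 58.5 to 194.1 CPM in the KFT set. It was the only 1 of 6 members called (log2 0.78, SE 0.23, adjusted p = 0.0172), where edgeR called 28.9% of all genes, and without Q1R replicate 1 it was not called (log2 0.66, adjusted p = 0.106). None had groups apart, as 18.0% of all genes had. NIR1 (log2 0.26, adjusted p = 0.163) and AMT2 (log2 0.18, adjusted p = 0.241) were not called, and AMT2 was called without Q1R replicate 1 (log2 0.38, adjusted p = 0.00894). The log2 difference of NIA2 between sets, 0.78, stood beside 0.50 at Q2, 0.41 at Q3 and -0.29 at Q4 within the time course.

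Genes of the surrounding pathways were called in 2 of 15, 3 of 12 and 12 of 24 cases, beside 28.9% of all genes. In Q1R 2 of 15 genes of ammonium assimilation were higher, GLT1 (log2 0.33, adjusted p = 0.0217) and GLN1;1 (log2 0.36, adjusted p = 0.024), and none was lower. 3 of 12 for cofactors were higher, RFNR2 (log2 0.44, adjusted p = 0.00659), UPM1 (log2 0.33, adjusted p = 0.0106) and the molybdenum cofactor gene CNX5 (log2 0.20, adjusted p = 0.0306). Of 24 tested for nitrate signalling 10 were higher and 2 lower, among them NLP7 (log2 0.63, adjusted p = 0.000127), LBD37 (log2 0.55, adjusted p = 0.00092) and NLP5 (log2 0.32, adjusted p = 0.0065) higher and LBD38 (log2 -0.49, adjusted p = 0.00452) lower. NLP7 was thus at 87.5 ± 11.2 CPM in Q1R and 55.0 ± 5.82 CPM in the KFT set, near its 57.6 ± 8.67 CPM in Q3R.

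The patterns of the members over the 15 groups were compared with those of 19747 genes, as Pearson's r of group means on the log2(CPM + 1) scale less the mean of each tissue. These correlations are a description over 15 groups, each from a single vessel. The genes named are those of highest r out of all genes compared, so high values are partly due to selection. The root groups came from both library sets, and the mean of each set was not taken off. Between Q1 roots of the sets edgeR called 28.9% of all genes, so r also holds differences between sets. NIR1 was most like MDAR6, a monodehydroascorbate reductase (r = 0.97), and AT3G55820, a fasciclin-like arabinogalactan protein (0.94). NIA2 was most like AT4G18205 (0.95), annotated as a nucleotide-sugar transporter, and AT3G28940 (0.92), and NIA1 most like AT5G37450 and AT5G26200 (0.88 each). Over leaf groups alone r was 0.76 for AT4G18205, 0.97 for AT3G28940, 0.50 for AT5G37450 (mean 1.68 CPM) and 0.91 for AT5G26200. Over root groups alone these were 0.96, 0.91, 0.89 and 0.92.

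AMT2 was most like the sucrose-proton symporter gene SUC1 (0.93) and AT5G25510, a regulatory subunit of protein phosphatase 2A (0.90). AT3G24300 was most like the calcium-dependent kinase gene CPK21 (0.88) and AT5G52890 (0.87). AT1G64780 was most like AT3G62270 (0.85), annotated in the bicarbonate transporter family, and PnsB1 (0.84), a subunit of the chloroplast NDH complex. Among the members themselves, AMT2 and NIR1 were closest (0.87), ahead of NIA2 and NIR1 (0.71), NIA1 and NIA2 (0.70), NIA1 and NIR1 (0.67) and AT1G64780 and AT3G24300 (0.63).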

How the data were processed

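RNA-seq read counts per gene were used. The authors trimmed reads with cutadapt, aligned them to TAIR10 with STAR, removed likely PCR duplicates, counted uniquely mapped reads with HTSeq and deposited raw counts in tables of 2 groups or pools of groups, beside fold changes and p-values from DESeq2, which were not used. The deposited counts of 24 tables were joined (28545 genes, 45 libraries, 0 conflicting values). Genes passing filterByExpr were scaled by TMM and tested with edgeR 4.0.16 (quasi-likelihood, R 4.3.3, limma 3.58.1), with Benjamini-Hochberg adjustment over all genes tested and calls at an adjusted p of at most 0.05. The standard error was the log2 fold change over the root of F. Each fit held only the libraries compared. DESeq2 1.42.0, other scalings, no filter, joint fits, a replicate block and leaving out each library were alternatives, and a block of leaf and root pairs within each time was added after seeing the data. The code was tested on simulated data. CPM used library totals. Lengths, overlaps and sequences came from RefSeq (TAIR10.1) with biopython 1.88. All 8 members were named, up to 4 called genes of each list per comparison by adjusted p, and the 2 genes most like each member (mean of at least 1 CPM, pseudocount of 1). Members and lists were chosen with earlier results of these data known. Reads carried no molecular identifiers, so limits from counts cover counting error only. Figures were drawn with matplotlib 3.10.9.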

Additional observations from a re-analysis of the deposited data

How the results depend on the processing

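Counts of members called were within 1.5 times of the reported count in 263 of 278 alternative fits. With DESeq2, 1 member was called for KFTs against the plate, 1 for roots at Q3, 2 for roots at Q4, 1 for leaves at Q4, 1 for clinorotated roots and 4 for leaves against roots, NIA1 having no adjusted p there. With no filter on low counts 1 was called for roots at Q3 and 1 at Q4. With all libraries of the set in a joint fit 1 was called for leaves at Q4, and with Q1 as the control of clinorotated roots 1. Leaves against roots gave 4 calls at Q2 only and 4 at Q4 only. Leaving out each library gave 0 to 1 calls for roots at Q3, clinorotated roots and the clinorotation difference of tissues, 5 to 7 for leaves against roots, 1 throughout for Q1R against the KFT set and 0 throughout elsewhere. For Q1R against the KFT set that call was NIA2, but without Q1R replicate 1 it was AMT2 instead. Of 1597 log2 fold changes 1482 were counted as unchanged. For a called member this meant only that it stayed called in the same direction, whatever its size. For a member not called it meant that it stayed so, within 1 SE of the reported value. Another 70 moved by more than 1 SE without a call or lacked an adjusted p. A call was lost in 30 and gained in 14, and AMT2 in leaves against roots reversed to -0.06 with library totals only. The joint fit was not run for Q1R against the KFT set or for the difference among KFTs. The causes of these changes were not tested.

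Libraries of the same replicate number deviated together in few pairs (r above 0.1 in 10 of 30 pairs of the KFT set, 3 of 30 of roots, 6 of 30 of leaves and 2 of 15 of leaf and root). For groups of different seedlings they shared only a number. Leaves and roots of a condition came from the same sets of plants, but whether a number marks a set is not given in the sources used here. With libraries of a time and number as pairs, a block chosen after seeing the data, 5 members were called between tissues (AMT2 and AMT1;1 were not), and edgeR called no member and 0 genes in the differences of leaf and root change, in place of 22, 2, 2 and 7 genes. With the replicate number alone as a block 6 in place of 7 members were called between tissues (AMT2 log2 0.26, adjusted p = 0.0584), and no other member count moved. Over all genes the block gave 604 calls in place of 953 for roots at Q3, 30 in place of 0 for leaves at Q2 and 8 in place of 1 for clinorotated roots. DESeq2 called more genes than edgeR, 522 against 215 for KFTs and plate (61 with counts summed per vessel), and in roots 489 against 77 at Q2, 2006 against 953 at Q3, 589 against 191 at Q4 and 411 against 1 under clinorotation. Joint fits gave 63 at Q3 and 83 at Q4 in roots, and fits with no filter 1481 and 476. With 3 libraries from a single vessel per group, depth limits only AMT1;5 and, in leaves, AMT1;3, which had 359 counts there in all. The near-zero counts of AMT1;1 carry the limit of the opposite strand given above.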
